A study of Drosophila melanogaster with 4 samples.

Results

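The genes described here are 9 Drosophila genes known for expression that differs between the sexes, mostly in the fat tissue of the head, taken by name out of the 13926 genes of the count table. They are dsx, which sets the sex of somatic tissues, 4 genes known for higher expression in male heads (to, tsx, Cyp4d21 and sxe2), and 4 known for higher expression in females (fit, Yp1, Yp2 and Yp3). The table lists 8 of them under these names. The remaining one, tsx, is listed as Obp99b, to which the RefSeq gene table pairs it as a synonym. RNA was taken from whole heads of male flies at day 50 of adult life (D50), in pools of 20 heads, with 2 libraries of NelfA*/+ flies and 2 libraries of their control siblings (+/+). NelfA*/+ flies carry one copy of the P-element allele Nelf-A KG09483, which had been backcrossed to w1118 for many generations, and both genotypes come from that cross. The question put to these libraries was how a lower dose of NELF-A, a subunit of the complex that holds RNA polymerase II in a paused state near the start of genes, alters expression in the aged head.

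The fat body is the insect tissue that does the work of liver and adipose tissue, and part of it lies inside the head capsule around the brain. Its sexual identity is set by alternative splicing, in which Sxl directs the splicing of tra, and Tra with Tra2 directs the splicing of dsx into a female or a male form. The Dsx proteins then raise or lower sets of target genes, of which the yolk protein genes are the classic example, and the head fat body is known for a group of secreted proteins that are made mainly in one sex. Counts per gene do not separate the male from the female form of dsx.

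Each library held between 42985746 and 45172099 counts assigned to genes. Normalized counts are raw counts scaled to the same effective library size with the TMM method, and genotypes were compared by the quasi-likelihood test of edgeR, where a gene passed at a Benjamini-Hochberg adjusted p below 0.05 among the 9609 tested. The mutated gene checked the labels: the normalized count of Nelf-A averaged 3482 ± 165 (SD, n = 2) over the controls against 2392 ± 8.42 (SD, n = 2) with the mutant allele, at a log2 fold change of -0.54 (edgeR adjusted p = 0.0411). That call was lost without control replicate 1 (edgeR adjusted p = 0.259) or control replicate 2 (0.145). Photoreceptor RNA was abundant, with between 1587824 and 1947169 raw counts of the rhodopsin gene ninaE, and so was RNA of fat body genes such as apolpp, with between 184062 and 240948 normalized counts. The neuronal gene elav was listed at 0 to 8 normalized counts, while nSyb, another neuronal gene, had between 69888 and 93696.

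Of the 9 genes, 8 had at least 10 counts in every library and were tested, and sxe2 was listed at 0. All 8 were lower in NelfA*/+ heads, the male-biased and the female-biased genes together, where 47.7% of all genes tested had a log2 fold change below 0. For each of the 8, the 2 genotypes did not overlap, with the mutant pools below the controls, which held for 26.0% of all genes tested (26.1% did so in the opposite direction). The log2 fold changes of the 8 genes ran from -2.52 (Yp2) to -0.29 (Yp3), with a median of -1.05, beside a median of 0.011 over all genes tested. Past the threshold of 0.05 were 2 of them, tsx and Cyp4d21, where 1.87% of all genes tested passed, 1.23% as lower and 0.645% as higher. Before adjustment all 8 were under 0.05, as were 10.7% of all genes tested on the lower side. DESeq2's Wald test called 7 of the 8 (not Yp3), against a background of 4.82% called lower and 8.98% called in either direction. The number called by edgeR's test depended on single libraries, for the 8 genes as for all genes tested. With either control library left out, tsx and Cyp4d21 were no longer called, and hardly any gene of all those tested was. In bulk heads, fewer cells of a type and less RNA per cell cannot be told apart. The 17 general fat body markers tested had a median log2 fold change of -0.12, with 10 lower and 7 higher. With the libraries scaled to these markers the median of the 8 sex-biased genes was -0.97. Whether these markers follow the amount of fat body was not tested.

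**Figure D1:**
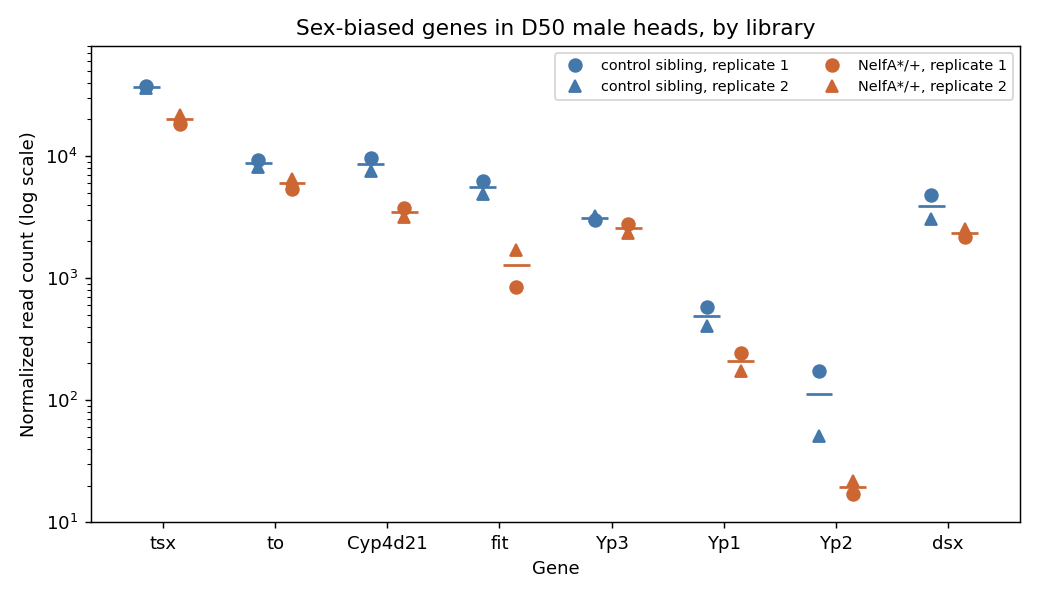
Normalized read counts (log axis) of the 8 sex-biased genes with counts, in each of the 4 libraries, with a horizontal bar at the mean of each genotype (n = 2). Every orange point (NelfA*/+) lies below both blue points (control siblings) of the same gene, with the widest gap for fit and the narrowest for Yp3.

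The most abundant of the male-biased genes was tsx ("turn on sex-specificity"), which encodes the odorant-binding protein Obp99b. Its gene spans 29716254 to 29716896 of chromosome arm 3R (BDGP6, reverse strand). It had 37687 and 35960 normalized counts in the controls, compared with 18394 and 21634 in the mutant pools. The lowest control library was thus 1.66 times the highest NelfA*/+ library. The gene fell to 54.4% of its control level, a log2 fold change of -0.88 (standard error, SE, 0.12, edgeR adjusted p = 0.0420). The call was lost in the fits without control replicate 1 (edgeR adjusted p = 0.259), without control replicate 2 (0.171) and without NelfA*/+ replicate 1 (0.0783), with log2 fold changes between -1.002 and -0.77 over the 4 such fits.

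Cyp4d21, a cytochrome P450 gene also known as sxe1, lies on 2L from 7605600 to 7607701 on the forward strand. It had 9691 and 7490 normalized counts in the controls, compared with 3731 and 3196 in the mutant pools, so that the lowest control library was 2.01 times the highest NelfA*/+ library. It fell to 40.3% of the control level, with a log2 fold change of -1.31 (SE 0.15, edgeR adjusted p = 0.0360). Of all 9609 genes, 102 had a lower log2 fold change. Without control replicate 1 or 2 the fold change was kept (log2 values of -1.12 and -1.48) but the adjusted p in edgeR's test was 0.180 and 0.0994.

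The gene to (takeout) encodes a small secreted protein of a family related to juvenile hormone-binding proteins, and is known for roles in male courtship, in feeding and as an output of the circadian clock. It lies on 3R from 25240180 to 25241668. It had 9374 and 8203 normalized counts in the controls, compared with 5413 and 6547 in the mutant pools. The groups did not overlap, and the lowest control library was 1.25 times the highest NelfA*/+ library. The NelfA*/+ level was 68.0% of the control level, and the log2 fold change, -0.56 (SE 0.12), did not pass (edgeR adjusted p = 0.104 and 0.00407 in DESeq2's Wald test).

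The last of the male-biased genes, sxe2, encodes a protein related to lipases. It was listed at 0 in all 4 libraries and has no fold change. It lies on 3R from 16083878 to 16087222 on the forward strand, wholly inside the muscle myosin-like gene Mhcl on the reverse strand. All 1822 protein-coding genes of the table whose span is contained in that of another were listed at 0, including all 996 that lie inside genes of the opposite strand only, compared with 629 of the other 12045 protein-coding genes. The count of sxe2 therefore says nothing on whether the gene was expressed. Whether the genes listed at 0 in the other lists below also lie inside another gene is not given here. Their 0 is therefore not a measure of absent RNA.

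Among the female-biased genes, fit ("female-specific independent of transformer") encodes a small secreted protein that is known in flies as a satiety signal after protein meals. It lies on 3R from 21883924 to 21884454 on the reverse strand. It had 6234 and 4893 normalized counts in the controls, compared with 839 and 1702 in the mutant pools. The NelfA*/+ pools differed from each other by 1.02 on the log2 scale, and the lowest control library was still 2.87 times the highest NelfA*/+ library. The mean of the NelfA*/+ heads was 22.8% of the control mean. The log2 fold change was -2.13 (SE 0.35), below which lay 23 of the 9609 genes tested, and it did not pass 0.05 (edgeR adjusted p = 0.0637, 0.00125 in DESeq2's Wald test). With NelfA*/+ replicate 1 left out it passed edgeR's test (log2 fold change -1.71, adjusted p = 0.00110), as it did with replicate 2 left out (-2.73, adjusted p = 5.3e-05), where the remaining NelfA*/+ library is assumed to vary like the controls.

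The gene fit is also the closest of the 9 to the mutated gene, 654412 bases from Nelf-A on the same arm. Of the 161 other genes tested within 1 Mb of Nelf-A, 2 were called lower and 2 higher in edgeR's test, with a median log2 fold change of 0.011. Among these 161, 2 had a lower log2 fold change than fit, as did 23 of all 9609 genes tested. Sequence linked to the P-element that came from the donor line cannot be told apart from the genotype here. In all, 5 of the 9 genes lie on 3R, 3 on X and 1 on 2L, and 1.85% of the genes tested on 3R were called lower, against 0.589% on X and 1.11% on 2L. By position, fit shares 99 (18.6%) of its exonic bases with other genes, namely CG31465 on the opposite strand and asRNA:CR45046, which lies on the same strand as fit and is not in the count table. How reads from the shared bases were assigned is not given in the sources used here.

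The 3 yolk protein genes encode related proteins that the fat body and ovary of females deliver to the egg, and male fat body is known to express them weakly. Yp1 and Yp2 stand head to head on X, with 1175 bases between their starts, at 10053811 to 10055498 and at 10050951 to 10052636, while Yp3 lies apart at 13759546 to 13761547. In these male heads Yp3 was the most abundant. It had 3017 and 3243 normalized counts in the controls, compared with 2777 and 2337 in the mutant pools. The gap between the groups was narrow, with the lowest control library 1.09 times the highest NelfA*/+ library. The NelfA*/+ level was 81.7% of the control level (log2 fold change -0.29, standard error 0.11, edgeR adjusted p = 0.224 and 0.204 in DESeq2's). Neither test called Yp3.

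Yp1 had 578 and 403 normalized counts in the controls, compared with 245 and 174 in the mutant pools. Its NelfA*/+ level was 42.7% of the control level, and the log2 fold change was -1.23 (SE 0.25, adjusted p of 0.0894 by edgeR and 0.000882 by DESeq2). It passed edgeR's test with NelfA*/+ replicate 1 left out (adjusted p = 0.0106) and with replicate 2 left out (0.0479). The annotation places an antisense RNA gene, asRNA:CR45601, over 54.3% of the exonic bases of Yp1. That gene is not in the count table.

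Yp2 was the least abundant, with 173 and 53 raw counts in the controls, compared with 17 and 21 in the mutant pools. The control libraries were far apart, as the log2 ratio of control replicate 2 to replicate 1 was -1.77. The log2 fold change was -2.52 (SE 0.66, adjusted p of 0.134 by edgeR and 0.00613 by DESeq2), and without control replicate 1 it was -1.39. At these counts the size of the difference is uncertain.

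The regulator dsx (doublesex), on 3R from 7924323 to 7967408, had 4772 and 3074 normalized counts in the controls, compared with 2175.5 and 2540 in the mutant pools. Control replicate 1 stood well above the other 3 libraries, and the lowest control library was 1.21 times the highest NelfA*/+ library. The mean of NelfA*/+ heads was 60.1% of the control mean. The log2 fold change was -0.73 (SE 0.22), with an adjusted p of 0.173 in edgeR's test and 0.0238 in DESeq2's. Without control replicate 1 the log2 fold change was -0.39.

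**Figure D2:**
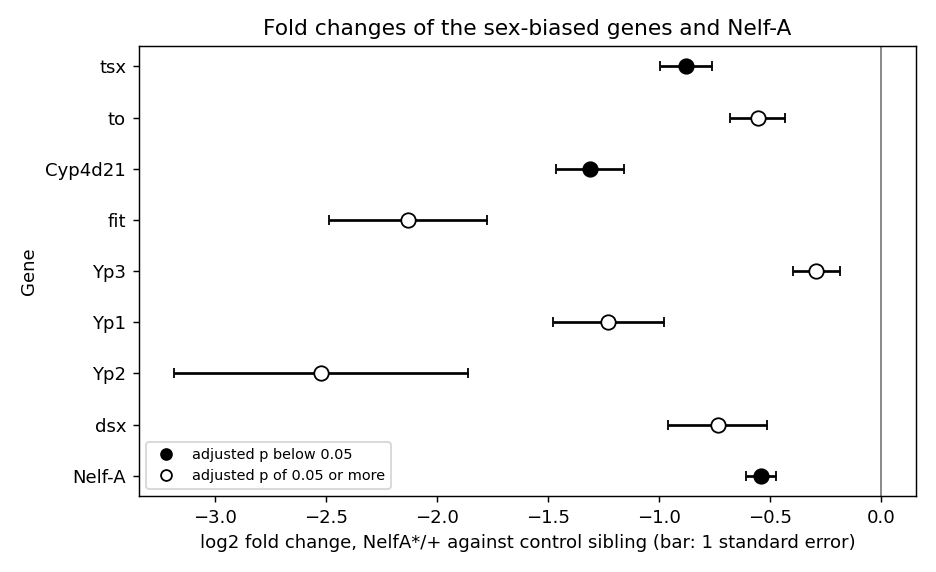
Log2 fold changes of the 8 sex-biased genes and of Nelf-A (points) between NelfA*/+ heads and control siblings, with bars of 1 standard error. Filled points, tsx, Cyp4d21 and Nelf-A, passed an adjusted p of 0.05, and all points lie below 0, from -0.29 for Yp3 to -2.52 for Yp2.

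**Figure D3:**
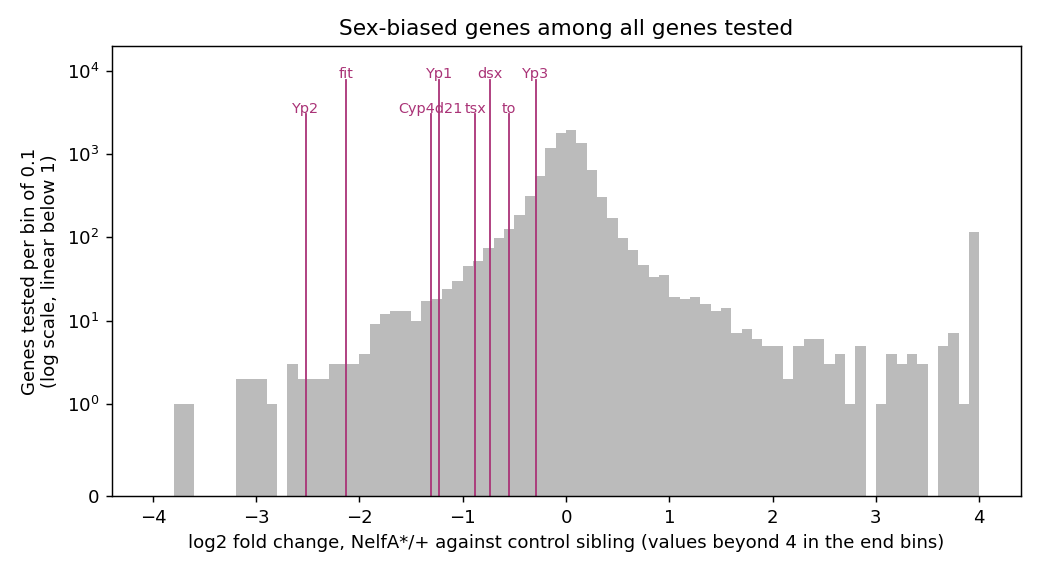
Number of genes tested (log axis) in bins of log2 fold change between NelfA*/+ heads and control siblings, with the sex-biased genes marked by vertical lines. Yp2 and fit stand in the sparse lower tail, where 13 and 23 of the 9609 genes have lower values, while 1114 genes lie below Yp3, and the bar at the right end gathers all genes with values of 4 or more.

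Levels of different genes were compared per length, as normalized counts per kilobase of exons. The gene sxe2 shares 0 exonic bases with other genes but was listed at 0. Reads may thus have been assigned over whole gene spans, introns included. Exonic length may then not be the length counted, above all for dsx, with 9.167 kilobases of exons between 7924323 and 7967408. In that case the levels below are not comparable between genes. In the control siblings tsx stood first with 61992 ± 2055 (SD, n = 2), followed by fit with 10477 ± 1786 (SD, n = 2), to with 7014 ± 661 (SD, n = 2) and Cyp4d21 with 4717 ± 855 (SD, n = 2). Yp3 had 1676 ± 85.8 (SD, n = 2) per kilobase, dsx 428 ± 131 (SD, n = 2), Yp1 304 ± 76.6 (SD, n = 2) and Yp2 69.3 ± 53.6 (SD, n = 2). Of these neighbours, the libraries of dsx and Yp1 overlapped and the others did not. In NelfA*/+ heads the order of fit and to was the opposite, with 2393 ± 1149 (SD, n = 2) for fit and 4772 ± 640 (SD, n = 2) for to, and fit overlapped with Cyp4d21, which had 1902 ± 208 (SD, n = 2). Together the 8 genes took 0.158% and 0.147% of all counts on genes in the controls, compared with 0.0747% and 0.0849% in the mutant pools.

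Ratios between the genes within a library need no scaling between libraries and were compared for 4 pairs of genes. Counts of fit were 66.5% and 59.6% of those of to in the controls, compared with 15.5% and 26.0% in NelfA*/+ heads. Counts of Cyp4d21 were 103% and 91.3% of those of to in the controls and 68.9% and 48.8% in NelfA*/+ heads. Yp1 was at 19.1% and 12.4% of Yp3 in the controls and at 8.82% and 7.43% in NelfA*/+ heads. In these 3 ratios the genotypes did not overlap. Their denominators, to and Yp3, fell least among the sex-biased genes tested, with log2 fold changes of -0.56 and -0.29. Lower ratios to these genes therefore largely restate the fold changes given above. The ratio of Yp2 to Yp1 overlapped, with 30.03% and 12.6% in the controls and 6.91% and 12.7% in NelfA*/+ heads. These ratios are descriptions of 4 libraries and were not tested. Other pairs of the genes were not compared, so the 4 chosen pairs do not show how common a lack of overlap was.

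**Figure D4:**
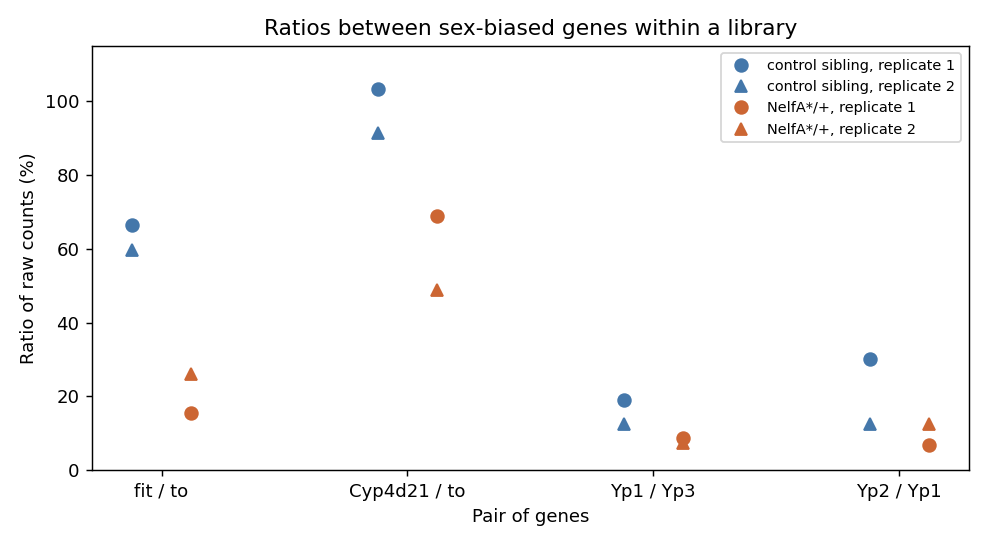
Ratios of raw counts (%) between chosen pairs of sex-biased genes within each library. For fit over to, Cyp4d21 over to and Yp1 over Yp3 both NelfA*/+ libraries lie below both control libraries, from 66.5% and 59.6% to 15.5% and 26.0% in the case of fit over to, whereas for Yp2 over Yp1 the genotypes overlap.

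The genes also varied within a genotype. In control replicate 2, 7 of the 8 genes were lower than in control replicate 1 (all but Yp3), with a median log2 ratio of -0.36. The median over the tested genes with counts in every library was 0.0058. Such differences were not particular to these genes. The same ratio was -0.79 for Sxl and -0.59 for Kr-h1, and 0.60 in the other direction for Lsd-1. Between the NelfA*/+ libraries 5 of the 8 were higher in replicate 2 and 3 were lower (Cyp4d21, Yp1 and Yp3), with a median log2 ratio of 0.23. Yp2 and dsx were the most uneven in the controls, with log2 ratios of -1.77 and -0.63, and fit was the most uneven in the NelfA*/+ heads.

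No gene of the sex-determination list passed. The list holds 10 genes (dsx among them), all tested, and not all of the others act upstream of dsx. By edgeR 0 passed and 2 were under 0.05 before adjustment, tra and dsx, which DESeq2 called as higher and as lower. The splicing regulator tra had 723 and 744 normalized counts in the controls, compared with 995 and 1088 in the mutant pools, at a log2 fold change of 0.51 (SE 0.078, adjusted p of 0.0585 by edgeR and 0.00291 by DESeq2). Its direction was thus opposite to that of dsx. The median log2 fold change of the list was 0.039. Sxl, the switch gene at the top of the cascade, had 21490 and 12428 normalized counts in the controls and 15993 and 19372 in NelfA*/+ heads, so that the genotypes overlapped. Among the 5 genes of the male dosage compensation complex in the table (msl-1, msl-2, msl-3, mle and mof), log2 fold changes lay between -0.012 and 0.097, with 0 called by edgeR, 0 at an unadjusted p below 0.05 and 0 called by DESeq2.

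General markers of the fat body were compared with the sex-biased genes. Whether they follow the amount of the tissue was not tested, and of those tested 10 were lower and 7 higher. Of the 23 markers listed, 22 are in the table, 3 of them (Ilp6, smp-30 and Pepck) at 0, and 17 were tested. As with sxe2, a listing at 0 need not mean that these 3 genes were not expressed. By edgeR 0 passed and 5 had an unadjusted p below 0.05, while DESeq2 called 1 higher and 2 lower. Lsp2, a storage protein of the fat body, had 16927 and 17198 normalized counts in the controls and 15088 and 15362 in NelfA*/+ heads (log2 fold change -0.16, edgeR adjusted p = 0.316). The markers with the smallest p were svp, a nuclear receptor gene, with a log2 fold change of -0.45 (edgeR adjusted p = 0.0733), and Lsd-1, which encodes the lipid droplet protein perilipin, with 0.74 (adjusted p = 0.151). Gnmt had the lowest log2 fold change of the tested markers, -0.57 (adjusted p of 0.198 by edgeR and 0.0319 by DESeq2), beside -0.56 for to. The study also reported lower Gnmt expression in NelfA*/+ heads. The summed level of the list was between 804511 and 804554 normalized counts in the controls and between 697625 and 756600 in NelfA*/+ heads. The near-equal control sums hide opposite shifts of abundant markers. Between control replicates 1 and 2, apolpp went from 240948 to 184062 normalized counts and Tsf1 from 147809 to 173554. With the libraries scaled to this list in place of TMM, the median of all genes tested was 0.094 and all 8 sex-biased genes remained lower, with log2 fold changes from -2.44 to -0.21. Over all genes this scaling called 98 higher and 91 lower, compared with 62 and 118 under TMM.

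**Figure D5:**
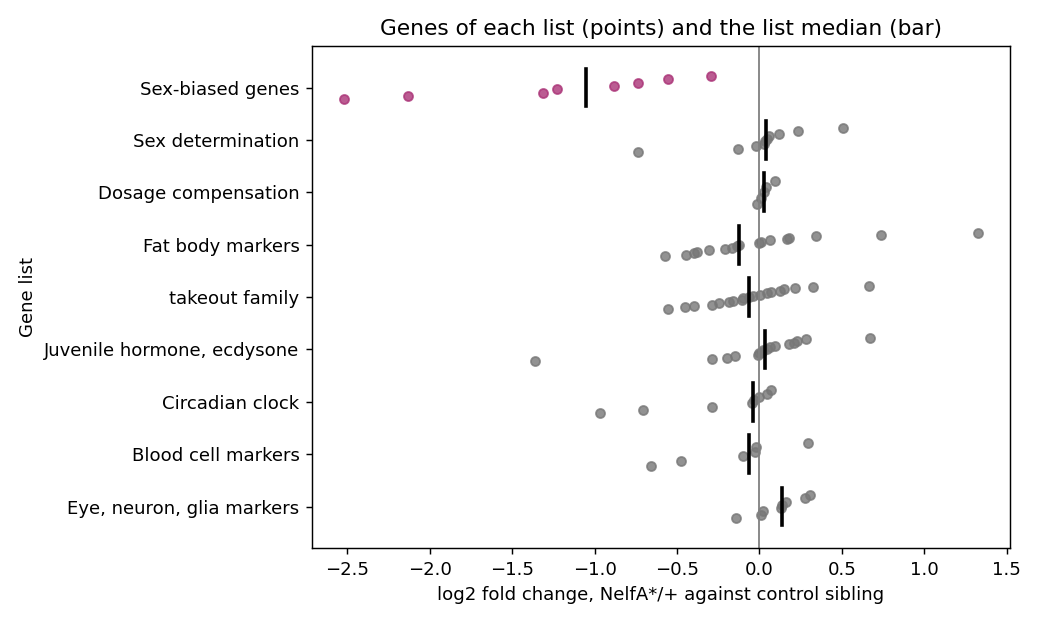
Log2 fold changes between NelfA*/+ heads and control siblings of each tested gene (points) in 9 lists, with a bar at the median of each list (dsx and to stand in 2 lists each). The sex-biased genes have a median of -1.05 and no point above 0. The medians of the other 8 lists plotted lie between -0.12 (fat body markers) and 0.14 (eye, neuron and glia markers). Not plotted are the genes that respond to feeding (median 0.0088) and those of the germline, ovary and eggshell (0.95). The genes of the accessory gland and testis (-0.91) and the gut genes (5.25) are not plotted either.

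The takeout gene belongs to a family whose other members served as a comparison. Of the 25 listed, 5 were at 0 and 19 were tested, with a median log2 fold change of -0.063. By edgeR 0 passed and 5 were under 0.05 before adjustment, while DESeq2 called to itself and CG31207 as lower. CG31207 had a log2 fold change of -0.45 (edgeR adjusted p = 0.0910), and that of to was the lowest of the family. The most abundant of the family in these heads, CG5945, had a log2 fold change of -0.063. CG5867 and CG14661, the next in abundance, had log2 fold changes of -0.29 and -0.24.

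Yolk protein genes are known to respond to juvenile hormone and ecdysone, and 16 of 18 genes of these pathways were tested. One passed in edgeR's test. Jhe, which encodes the juvenile hormone esterase that degrades the hormone, fell from 1139 ± 160 (SD, n = 2) normalized counts in the controls to 443 ± 8.35 (SD, n = 2) in NelfA*/+ heads, at a log2 fold change of -1.36 (SE 0.12, edgeR adjusted p = 0.0177). The receptors of the hormone, Met and gce, had log2 fold changes of 0.00030 and 0.014, and the ecdysone receptor EcR one of 0.064. The median of the list was 0.036. The call of Jhe was lost without either control library, as were nearly all calls over all genes tested. Jhe stood apart from the other 15 tested genes, whose log2 fold changes lay no lower than that of Kr-h1, at -0.29.

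The 8 clock genes were all tested, since to is an output of the clock. Their median was -0.037, and 0 passed in edgeR's test, with 3 at an unadjusted p below 0.05 and 2 called lower by DESeq2, tim and cwo. The gene tim, a core repressor of the clock, had 9318 and 6527 normalized counts in the controls and 4438 and 3674 in NelfA*/+ heads (log2 fold change -0.97, edgeR adjusted p = 0.0889). The repressor gene cwo had a log2 fold change of -0.71 (adjusted p = 0.0947). Of the genes that respond to feeding and starvation, 9 of 14 in the table were tested, with a median of 0.0088, and 0 passed in edgeR's test (1 at an unadjusted p below 0.05, the lipase gene Lip4, which DESeq2 also called, as lower). Lip4 had a log2 fold change of -0.65 (edgeR adjusted p = 0.0629).

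Genes of other tissues were examined because a head pool can hold RNA of other cells. Genes of the germline, ovary and eggshell, some of which (bam and nos) are also known from the male germline, summed to between 122 and 160 normalized counts in the controls and between 169 and 179 in NelfA*/+ heads over 17 genes, with Cp36, Cp38, Vm32E and nos at 0. Of these, 5 were tested, with a median log2 fold change of 0.95, 0 called by edgeR, 1 at an unadjusted p below 0.05 (Cp19) and 0 called by DESeq2. Genes of the accessory gland and testis summed to between 181 and 255 normalized counts in the controls and between 139 and 148 in NelfA*/+ heads over 24 genes, 8 of them at 0, with 3 tested at a median log2 fold change of -0.91, 0 called by edgeR, 0 at an unadjusted p below 0.05 and 1 called lower by DESeq2 (dj, with 7 and 19 raw counts in the controls and 0 in both NelfA*/+ libraries, too few for edgeR's test). Blood cell markers had a median of -0.064 over 6 genes, with 0 called by edgeR, 3 at an unadjusted p below 0.05 and 0 called by DESeq2.

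Gut genes, most of them for digestive enzymes, differed between the genotypes. Of 25 listed, 12 were tested, 10 of them higher in NelfA*/+ heads (median log2 fold change 5.25). Some of these, Jon65Aiii among them, passed the filter on low counts only through the NelfA*/+ libraries. A median above 0 was thus partly set by the filter. By edgeR 1 was called higher (the protease gene Jon65Aiii) and 1 lower (the amylase gene Amy-d). DESeq2 called 7 of the gut genes higher and 1 lower. How many of them edgeR called depended on which library was left out, as it did for all genes tested. Jon65Aiii had 4 and 4 normalized counts in the controls and 3267 and 1616 in NelfA*/+ heads. Amy-d, which is close in sequence to Amy-p, fell from 22153 ± 2865 (SD, n = 2) to 11131 ± 445 (SD, n = 2). The summed level of the list, carried by the amylase genes in the controls, was between 38399 and 45802 in the controls and between 31065 and 60123 in NelfA*/+ heads, and Jon65Aii, gammaTry and mag were at 0. The part of gut RNA in the values of the sex-biased genes was not tested. NelfA*/+ replicate 1 was the library with the higher counts of most of these enzymes. In the fit without it, the log2 fold changes of the 8 sex-biased genes ran from -2.34 to -0.42. Their direction there followed from the lack of overlap between the genotypes. The NelfA*/+ library that remained still had 1616 normalized counts of Jon65Aiii, so that fit does not decide the part of gut RNA.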

How the data were processed

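Polyadenylated RNA from pools of D50 male heads was sequenced in 4 libraries, 2 per genotype. Per the study's methods, adaptors were removed with Trim Galore, STAR 2.5 mapped the reads to BDGP6, and HTSeq-count tallied them by gene. The strand and overlap settings are not given in the sources used here. The authors deposited these raw counts, which are not normalized. The summary lines of HTSeq-count, between 17.2% and 17.6% of each library, were not used. A second deposited table holds the authors' DESeq2 fold changes and p-values and was not used.

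Genes were filtered with filterByExpr, normalized with TMM and tested with glmQLFit and glmQLFTest in edgeR 4.0.16 (R 4.3.3), two-sided, on genotype alone, with Benjamini-Hochberg adjustment over 9609 genes. For normalized counts, each library's counts were divided by its effective (TMM) size over the mean effective size. Standard errors were taken as log2 fold change over root F. The alternatives were DESeq2 1.42.0, its size factors, library size alone, no filter, a minimum of 10 counts in all libraries, limma-voom (limma 3.58.1), dispersions estimated robustly, a replicate block, and leaving out each library. Crossed replicate numbers and a scaling to the fat body list were added after the data were seen. The steps were tested on simulated counts. Positions and exonic lengths come from a later Ensembl annotation of BDGP6, in which 13878 of 13926 names were found. Exonic length is that of all annotated exons of a gene joined. The labels do not say how the pools were separated, so p-values measure the spread between these libraries only.

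The sex-biased genes and the other lists were chosen with earlier results of these data known. Named genes are the 9 genes and Nelf-A, and of each other list those past the threshold (at most 4 higher and 4 lower by fold change) or, where none passed, up to 2 with the smallest p, with defining markers at 0 or most abundant by their counts. Sxl, the dosage compensation genes, nSyb, Gnmt, Tsf1, CG14661, CG5867, CG5945, Met, gce, EcR, Kr-h1, Amy-p, bam, dj and CG31465 were named after their values were seen.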

Additional observations from a re-analysis of the deposited data

How the results depend on the processing

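All 8 sex-biased genes with counts and Nelf-A were lower in NelfA*/+ heads under the 9 alternatives on the 4 libraries for which their fold change was computed. They were lower also in the 4 fits that left out 1 library, where the direction followed from the lack of overlap between the genotypes. The calls were less stable. The log2 fold change of tsx no longer passed without the filter on low counts (-0.88, adjusted p = 0.0657 in edgeR's test), in limma-voom (-0.88, 0.0502), with the replicate block (-0.88, 0.0786) or scaled to the fat body list (-0.79, 0.0597). Cyp4d21 no longer passed without the filter (-1.31, 0.0536), nor Nelf-A without the filter (-0.54, 0.0584), with the block (-0.54, 0.0537) or scaled to the fat body list (-0.46, 0.0638). Under DESeq2's Wald test the log2 fold changes of to (-0.55), fit (-2.13), Yp1 (-1.23), Yp2 (-2.53) and dsx (-0.73) passed too. That of fit also passed with library size alone (-2.15, adjusted p = 0.0408 in edgeR's test), with at least 10 counts in every library (-2.13, 0.0491) and with the block (-2.20, 0.0262), and that of Yp1 with the block (-1.23, 0.0120). The number of sex-biased genes called, 2 in the comparison as reported, was 7 in DESeq2, 0 without the filter, 1 in limma-voom and 1 scaled to the fat body list. The number of all genes called, 180 as reported, was 911 in DESeq2, 82 without the filter, 359 with robust dispersions and 118 in limma-voom. Over the genes of the other lists, 3 were called as reported, 19 in DESeq2, and 6 both with library size alone and with robust dispersions. The direction of the medians of the other lists changed in 13 of 168 cases.

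With each library left out in turn, the log2 fold change ranged from -0.70 to -0.42 for to, -1.002 to -0.77 for tsx, -1.48 to -1.12 for Cyp4d21, -2.73 to -1.71 for fit, -1.50 to -0.95 for Yp1, -3.15 to -1.39 for Yp2, -0.42 to -0.17 for Yp3, -1.02 to -0.39 for dsx and -0.59 to -0.50 for Nelf-A. The number called ranged from 0 to 4 for the sex-biased genes, from 2 to 554 for all genes and from 0 to 14 for the other lists. In each of these fits a genotype had a lone library, which was assumed to vary like the other genotype.

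The labels do not say whether the replicate numbers pair the libraries. The deviations of libraries that share a number correlated at -0.12 over 8398 genes. With 2 libraries per genotype this is a single comparison, so it cannot decide whether they were paired. With the number as a block edgeR called 297 genes, 3 of the sex-biased genes and 12 of the other lists. With the numbers crossed between the genotypes, edgeR's replicate block called 797 genes, 6 of the sex-biased genes and 16 of the other lists. Depth limits Yp2, with 17 and 21 raw counts in NelfA*/+ heads.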

Other observations

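Of the genes that respond to feeding and starvation, 2 varied widely between pools of one genotype. Akh, which encodes the adipokinetic hormone made in the corpora cardiaca, had 90 and 722 normalized counts in the controls, compared with 752 and 3229 in the mutant pools. The gene sug (sugarbabe), a sugar-responsive regulator of fat metabolism, had 743 and 2947 in the controls, compared with 3125 and 2090. Neither passed edgeR's test, with adjusted p of 0.330 and 0.717, and both were named after their values were seen.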
